A study of Mus musculus with 6 samples.

Results

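The genes described here are those that bring long-chain fatty acids into the heart cell, carry them into the mitochondrion and oxidise them. They were taken from a list of 35 genes, and every probe set that the array's annotation assigned to exactly 1 of them was used. A probe set is a group of short DNA probes on the array that reports 1 transcript, and a gene can have several. In all, 32 genes had such a probe set, out of 11016 genes tested, with 57 probe sets between them, and each of the 32 had at least 1 bright enough to be tested. The probe set that carries Cpt1b is annotated to further genes and was not used, and Acsl1 and Ucp2 were not analysed here.

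RNA of mouse heart tissue was measured on 6 whole-genome expression arrays in 2 groups of 3. The first group came from C57BL/6 mice that overexpress hAT1R, the human type 1 angiotensin II receptor, and the second from normal C57BL/6 mice without the transgene. The design text says that animals were matched for age and sex, while their age, the promoter that drives the transgene and the number of lines remain not given in the sources used here. Nothing in the labels ties each array to its own animal, so p-values measure only the spread between these samples, which may be partly technical.

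Several facts about the arrays bear on every difference given here. On all 6 arrays, the word typed into the chip lot field of the instrument record named the opposite group from the sample label. Groups follow the labels, "labelled transgenic" is written for that reason, and the typed words would turn the sign of each difference. Fluidics station 2 served the 3 labelled transgenic arrays together with non-transgenic array 1, and station 3 served the other 2 non-transgenic arrays. Xist, the RNA of the inactive X chromosome in females, was above log2 6 on 2 labelled transgenic arrays and 1 non-transgenic array. By this level the groups did not hold equal numbers of females, although the design text says that animals were matched for sex. Each group had arrays on both sides of that level, so the arrays of a group did not all come from 1 animal. Cardiomyocyte markers were at the bright end of the scale on every array, with a mean over 14 genes between log2 14.97 and 15.00 over the 6 arrays.

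The adult heart draws most of its ATP from fatty acids. Cd36 and Slc27a1 take them up, Fabp3 binds them in the cytosol, and acyl-CoA synthetases such as that encoded by Acsl1 activate them. Carnitine palmitoyltransferases and a carrier move the acyl group through the inner mitochondrial membrane, and malonyl-CoA inhibits the first of these enzymes. Inside, each turn of beta-oxidation runs through an acyl-CoA dehydrogenase, a hydratase, a hydroxyacyl-CoA dehydrogenase and a thiolase, and electrons leave through the electron transfer flavoprotein. Nuclear receptors of the PPAR and ERR families are known to regulate many of these genes, and hypertrophied hearts are known for lower expression of them.

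All 32 genes had a lower mean on the labelled transgenic arrays, by small amounts, and none passed the test. The median difference, labelled transgenic minus non-transgenic, was -0.28 on the log2 scale, against 0.0099 over all genes tested. Single genes ran from -0.84 for the thioesterase Acot1 to -0.0086 for Fabp3, and 29 of the 32 differed by less than 1.5-fold. A negative difference was found in 47.6% of all genes tested. With each gene read from its brightest probe set, limma's moderated test, adjusted by the Benjamini-Hochberg method over all 22518 probe sets, called 0 of the 32 genes lower at an adjusted p under 0.05, where it called 0.0272% of all genes lower. None of the 54 member probe sets tested was called in either direction, where 0.04% of all probe sets were called lower and 0.178% higher.

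At an unadjusted p under 0.05, 18 of the 32 genes were lower, against 7.76% of all genes. This number changed when single arrays were left out, which also leaves fewer arrays for the test. It was 20, 10 and 8 without labelled transgenic arrays 1, 2 and 3 in turn. Without non-transgenic arrays 1, 2 and 3 it was 13, 16 and 9. In 20 of the 32 genes, each labelled transgenic array lay below each non-transgenic one, which held for 10.9% of all genes. Many of the 32 genes are very bright on these arrays, and bright genes vary less between arrays. Of the 442 genes with a mean above log2 12, which include 18 members, 55.2% had a negative difference, 29.9% were lower without overlap and 15.2% were lower at an unadjusted p under 0.05. The 18 bright members all had a negative difference, 13 were lower without overlap and 9 were lower at that unadjusted p.

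**Figure D1:**
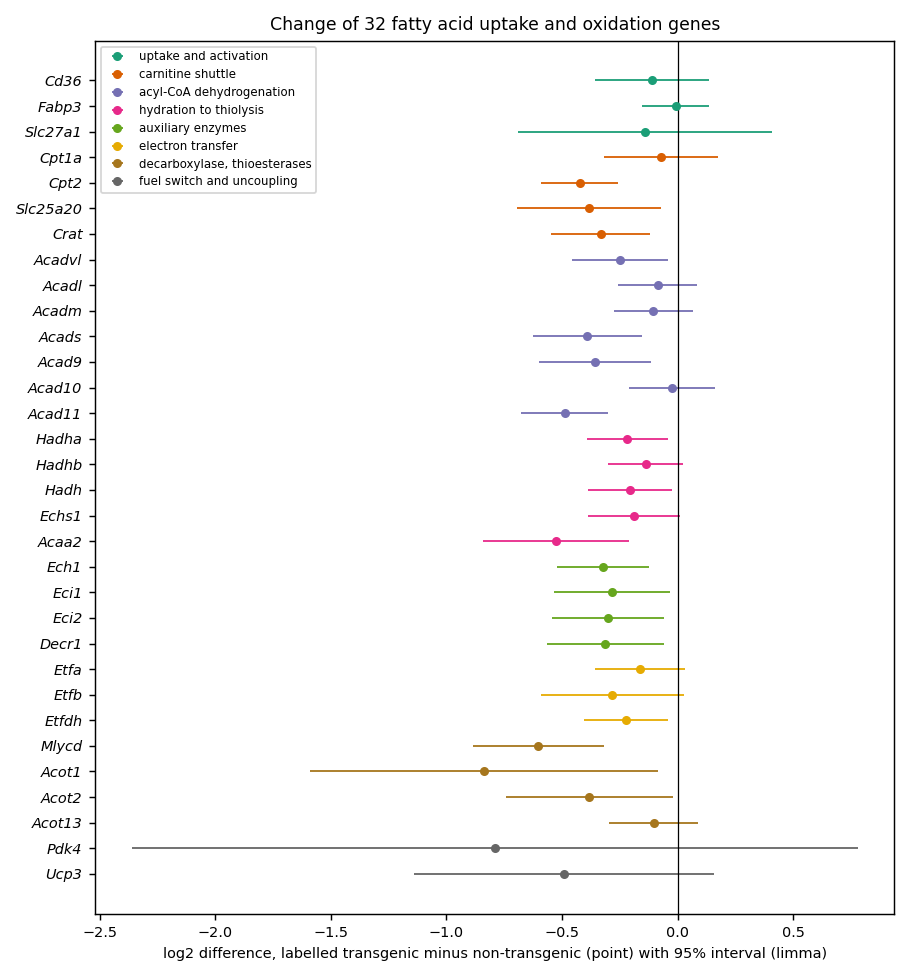
Difference in log2 value between labelled transgenic and non-transgenic arrays (horizontal axis) for each of the 32 genes (rows, coloured by step), shown as limma's estimate with its 95% interval, 3 arrays per group. All 32 estimates lie below 0, and the intervals of 14 genes include 0.

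Read from the brightest probe sets, uptake differed least between the groups. None of its 3 measured genes had an unadjusted p under 0.05 and the groups overlapped in all of them, with a median difference of -0.11. Cd36, the membrane fatty acid translocase, was at log2 13.76, 13.72 and 13.53 on labelled transgenic arrays 1 to 3 and at 13.65, 13.91 and 13.78 on non-transgenic arrays 1 to 3. Only labelled transgenic array 3 lay below all non-transgenic values, and the difference was -0.11 (95% interval -0.36 to 0.14, adjusted p = 0.634). The other Cd36 probe sets were at -0.15 and -0.31, and with the station as a block the brightest one was at 0.016. Slc27a1, a fatty acid transport protein, was at 10.22, 9.70 and 9.46 against 10.20, 9.92 and 9.68. The range within each group was wider than the gap between their means, a difference of -0.14 (95% interval -0.69 to 0.41, adjusted p = 0.805) that was -0.41 with the station as a block and 0.028 without labelled transgenic array 3. The second Slc27a1 probe set was at -0.28, with overlapping groups. Fabp3, the heart fatty acid binding protein, was at 15.25, 15.23 and 15.22 against 15.24, 15.26 and 15.22. Since this probe set lies within 1 log2 unit of the brightest value on each array, its closeness between groups cannot be read as no change. The second Fabp3 probe set, dim at a mean of log2 3.62, was at -0.20 without overlap.

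The carnitine shuttle was lower in 3 of its 4 measured genes without overlap between groups, and its median difference was -0.36. Of all genes tested, 10.9% were lower without overlap, and of those above log2 12, 29.9%. Cpt2, the inner membrane palmitoyltransferase that reforms acyl-CoA in the matrix, was at log2 12.14, 12.04 and 12.07 on the labelled transgenic arrays and at 12.47, 12.48 and 12.57 on the non-transgenic ones. The labelled transgenic values all lay below the others and close to each other. Its level was 1.34-fold lower, a difference of -0.42 ± 0.069 (SE, n = 3 per group, adjusted p = 0.078), and its dim second probe set was at -0.15. Across the alternatives the adjusted p lay between 0.0418 and 0.248.

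Crat, the carnitine acetyltransferase that buffers acetyl-CoA, was at 11.53, 11.49 and 11.35 against 11.88, 11.68 and 11.80. Its labelled transgenic values were again the 3 lowest, at -0.33 ± 0.088 (adjusted p = 0.164), with its other probe sets at -0.26 and -0.48. Slc25a20, the carnitine-acylcarnitine carrier of the inner membrane, differed by -0.38 ± 0.13 (adjusted p = 0.232) and by -0.23 on its other probe set. Cpt1a encodes the palmitoyltransferase of the outer membrane that prevails in liver. It was at 7.79, 7.92 and 7.67 against 8.01, 7.76 and 7.84, with overlapping groups. Its 3 probe sets did not share a sign, at -0.072, 0.058 and 0.039, and their mean difference was 0.0082. With the station as a block its brightest probe set was at -0.21.

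The 7 acyl-CoA dehydrogenases take out the first pair of hydrogens and differ in chain length. Of these, 5 were lower without overlap, against 10.9% of all genes and 29.9% of those above log2 12. The median difference was -0.25. Acad11, known to act on long saturated chains, was at log2 11.37, 11.18 and 11.34 against 11.77, 11.75 and 11.82. The groups stood apart by more than the range within either, and the level was 1.40-fold lower (-0.49 ± 0.077, adjusted p = 0.078). A second Acad11 probe set gave -0.48 (adjusted p = 0.104). Across the alternatives the brighter probe set had an adjusted p between 0.0391 and 0.234. Acads, the short-chain enzyme, was at 10.01, 10.16 and 10.09 against 10.59, 10.31 and 10.53. The labelled transgenic arrays gave its 3 lowest values, with a difference of -0.39 ± 0.097 (adjusted p = 0.151).

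The remaining dehydrogenases differed less or less uniformly. Acadvl, the very long-chain enzyme of the inner membrane, was at -0.25 ± 0.085 (adjusted p = 0.239). Acad9, which also assembles respiratory complex I, was at -0.36 ± 0.10 (adjusted p = 0.176) on its brightest probe set and at -0.029 on another. The medium-chain enzyme Acadm was at -0.10 ± 0.071 (adjusted p = 0.522) and lower without overlap. The long-chain enzyme Acadl, at -0.087 (adjusted p = 0.598), and Acad10, at -0.024 (adjusted p = 0.913), had overlapping groups. Acad10 turned to 0.036 with the station as a block and to 0.028 without labelled transgenic array 2.

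Promoter sequence is shown for Cpt2 and Acad11, the genes with the smallest p among the 32, and for Acadm, the member whose upstream window holds the extended half-site AAGGTCA. Each is the 250 bases before the annotated start, from RefSeq (GRCm38.p6), written 5′ to 3′ on the gene's strand. Cpt2 lies on the minus strand (chr4:107923590-107923839), Acad11 on the plus strand (chr9:104063474-104063723) and Acadm on the minus strand (chr3:153944644-153944893). Capitals mark AGGTCA, a half-site that nuclear receptors such as PPAR and ERR recognise, or GGGCGG, the GC box, on either strand.
Cpt2: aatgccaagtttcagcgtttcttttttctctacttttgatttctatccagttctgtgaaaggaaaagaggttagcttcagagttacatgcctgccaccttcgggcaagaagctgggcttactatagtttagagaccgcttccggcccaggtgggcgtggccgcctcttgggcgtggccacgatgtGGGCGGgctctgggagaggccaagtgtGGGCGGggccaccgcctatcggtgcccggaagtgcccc
Acad11: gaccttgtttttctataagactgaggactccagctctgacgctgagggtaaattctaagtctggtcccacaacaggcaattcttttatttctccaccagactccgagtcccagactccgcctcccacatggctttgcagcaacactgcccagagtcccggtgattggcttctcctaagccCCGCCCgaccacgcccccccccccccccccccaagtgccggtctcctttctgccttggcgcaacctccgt
Acadm: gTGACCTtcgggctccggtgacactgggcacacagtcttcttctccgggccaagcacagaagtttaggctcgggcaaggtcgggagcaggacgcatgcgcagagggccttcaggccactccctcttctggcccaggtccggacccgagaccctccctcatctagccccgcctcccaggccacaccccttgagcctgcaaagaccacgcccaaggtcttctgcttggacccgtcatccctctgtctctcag
The Cpt2 window holds 2 GC boxes and no half-site, that of Acad11 holds 1 GC box and no half-site, and that of Acadm holds 1 half-site and no GC box. Of the 32 genes, 27 had a promoter in the table. On either strand AGGTCA was found in 6 of them (22.2%, against 15.8% of 27025 genes), and AAGGTCA, which contains it, in 1 (3.7%, against 4.7%). The direct repeat of AGGTCA with 1 base between its copies was found in 0 of the 27 and in 0.0407% of all genes. GGGCGG was found in 16 (59.3%, against 35.4%) and CCAAT in 13 (48.1%, against 37.5%). These are matches of letters in a short window and do not show a bound site.

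The hydration, hydroxyacyl dehydrogenation and thiolysis enzymes were lower without overlap in all 5 genes, with a median difference of -0.21. All 5 had a mean above log2 12, where 29.9% of genes were lower without overlap, against 10.9% of all genes. Acaa2, the thiolase that closes the cycle, was at log2 13.13, 12.87 and 12.65 against 13.41, 13.34 and 13.48. Its labelled transgenic arrays were spread over 0.48, more than the 0.14 between the non-transgenic ones, yet all lay below them. The level was 1.44-fold lower (-0.52 ± 0.13, adjusted p = 0.150), and its other probe sets were at -0.54 and -0.46, also without overlap. Hadha, the alpha subunit of the trifunctional protein, was at 13.38, 13.32 and 13.27 against 13.58, 13.46 and 13.58. This was a difference of -0.22 ± 0.072 (adjusted p = 0.229), again with the 3 lowest values on the labelled transgenic arrays. The beta subunit Hadhb was at -0.14 ± 0.066 (adjusted p = 0.370), the hydratase Echs1 at -0.19 ± 0.082 (adjusted p = 0.327) and the short-chain hydroxyacyl-CoA dehydrogenase Hadh at -0.21 ± 0.075 (adjusted p = 0.260). The 3 Hadh probe sets, the lowest at -0.28, were each without overlap, while the other Hadhb probe sets overlapped.

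The 4 auxiliary enzymes that handle double bonds were the most even group. All 4 were lower without overlap, between -0.32 and -0.28, with a median of -0.31. The share lower without overlap was 10.9% over all genes and 29.9% over those above log2 12. Ech1, a dienoyl-CoA isomerase, was at log2 14.61, 14.52 and 14.39 against 14.88, 14.78 and 14.82. Its groups stood apart, at -0.32 ± 0.082 (adjusted p = 0.154). The enoyl-CoA isomerase Eci2 was at 11.23, 11.05 and 10.91 against 11.31, 11.36 and 11.43, a difference of -0.30 ± 0.099 (adjusted p = 0.228). Labelled transgenic array 1 came close to the lowest non-transgenic array there. Eci1, a related isomerase, was at -0.28 ± 0.10 (adjusted p = 0.260), and the dienoyl-CoA reductase Decr1 was at -0.31 ± 0.10 (adjusted p = 0.232). A dimmer Decr1 probe set gave -0.60 (adjusted p = 0.119), a larger difference than on the bright one.

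Electron transfer was lower in its 3 genes by a median of -0.22, without overlap in 2 of them. All 3 had a mean above log2 12, where 29.9% of genes were lower without overlap. Etfdh, the oxidoreductase that passes electrons on to ubiquinone, was at log2 13.04, 13.01 and 12.87 against 13.21, 13.15 and 13.23. All its labelled transgenic values were below the others (-0.22 ± 0.075, adjusted p = 0.234). Etfb, the beta subunit of the flavoprotein, was at 13.23, 12.98 and 12.83 against 13.43, 13.17 and 13.29. The groups overlapped through labelled transgenic array 1, and the difference was -0.28 ± 0.13 (adjusted p = 0.342). The alpha subunit Etfa was at -0.16 ± 0.080 (adjusted p = 0.382).

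**Figure D2:**
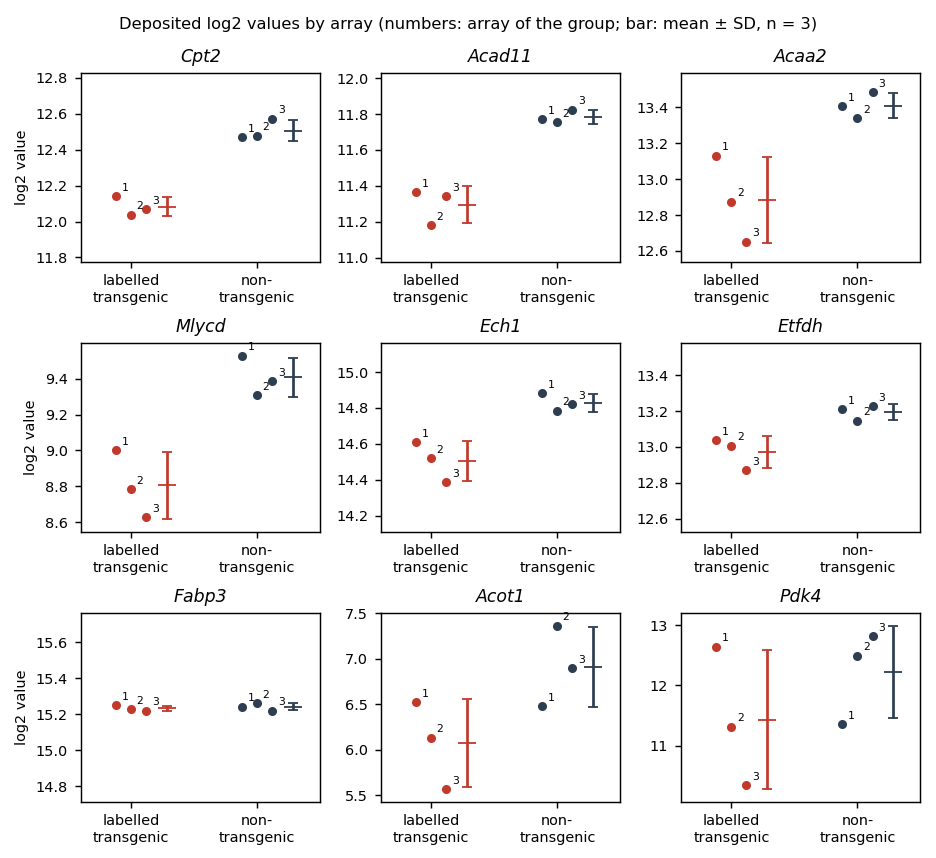
Deposited log2 values (vertical axis, at least 1 unit in each panel, not starting at 0) on the 6 arrays for 9 genes, with the array number beside each point and the mean ± SD of 3 arrays as bars. Cpt2, Acad11, Acaa2, Mlycd, Ech1 and Etfdh show groups apart, Fabp3 shows all values between 15.22 and 15.26, and Acot1 and Pdk4 overlap.

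Genes that set the supply and release of acyl-CoA had larger and less even differences. Mlycd, the decarboxylase that removes malonyl-CoA, was at log2 9.0, 8.79 and 8.63 against 9.53, 9.31 and 9.39. The groups did not overlap, and the level was 1.52-fold lower (-0.60 ± 0.12, adjusted p = 0.102). For Mlycd the alternatives gave an adjusted p between 0.0524 and 0.256. Acot1, a cytosolic thioesterase that splits acyl-CoA, was at 6.52, 6.13 and 5.57 against 6.48, 7.36 and 6.90. Labelled transgenic array 1 and non-transgenic array 1 were almost equal, and the groups overlapped. Its difference of -0.84 ± 0.31 (adjusted p = 0.265) was -0.40 with the station as a block. The mitochondrial thioesterase Acot2 was at -0.38 ± 0.15 (adjusted p = 0.284), at -0.24 with the station as a block, and at -0.65 on a dimmer probe set whose arrays ranked in the same order as those of Acot1. Acot1 and Acot2 are near-identical copies, and another probe set is annotated to both, so their dim probe sets may share transcripts. Acot13, a small mitochondrial thioesterase, was at -0.10 (adjusted p = 0.578).

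The fuel switch and uncoupling genes varied most between arrays of the same group. Pdk4, the kinase that inhibits pyruvate dehydrogenase and so spares glucose, was at log2 12.64, 11.32 and 10.34 against 11.36, 12.50 and 12.82. Its labelled transgenic arrays spread over 2.30 and its non-transgenic ones over 1.46, so the groups overlapped. The difference of -0.79 (95% interval -2.36 to 0.78, adjusted p = 0.598) was -0.25 without labelled transgenic array 3 and 0.074 with the station as a block. Ucp3, an inner membrane carrier of muscle and heart, was at 7.67, 7.56 and 6.75 against 7.91, 8.01 and 7.54. Non-transgenic array 3 lay below labelled transgenic arrays 1 and 2. The difference was -0.49 ± 0.27 (adjusted p = 0.421), or -0.20 without labelled transgenic array 3, and the second probe set gave -0.85 (adjusted p = 0.311). The within-group SD was 0.98 for Pdk4, 0.46 for Acot1 and 0.40 for Ucp3. Its median over the 32 genes was 0.109, against 0.137 over all genes tested and 0.0712 over the 442 genes above log2 12.

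The labelled transgenic arrays were not equally low. Array 3 of that group gave the lowest of the 6 values in 27 of the 32 genes, while it was the lowest in 12.9% of all genes tested. Labelled transgenic array 1 gave the highest value of its group in 27 of them. When each gene was centred on its mean over the 6 arrays, the 32 genes averaged 0.0088 on labelled transgenic array 1, -0.14 on array 2 and -0.31 on array 3. The non-transgenic arrays were at 0.14, 0.13 and 0.17. Labelled transgenic array 1 was below all non-transgenic arrays in 20 genes, array 2 in 27 and array 3 in 30. The matching shares over all genes were not computed for these counts, nor for the count of highest values within the group. They describe the members only. Without labelled transgenic array 3 the median difference was -0.20, with 31 of 32 genes negative. Without that array Acadm was at -0.059, Etfa at -0.095 and Acot2 at -0.25, while Cpt2 stayed at -0.42 and Acad11 was at -0.51.

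**Figure D3:**
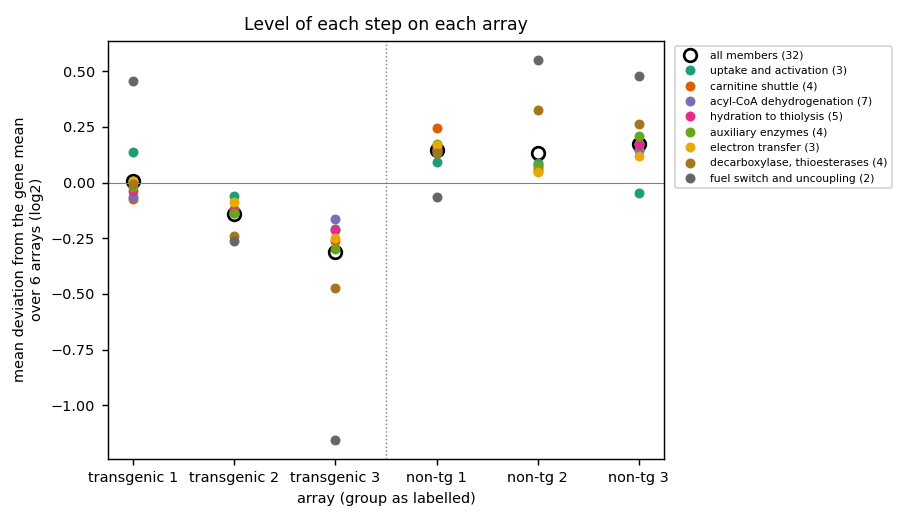
Mean deviation from each gene's own mean over the 6 arrays (vertical axis, log2) for each step (coloured points) and for all 32 genes (open black circles), by array. For all genes together the labelled transgenic arrays lie at 0.0088, -0.14 and -0.31 and the non-transgenic arrays between 0.13 and 0.17. In 6 of the 8 steps, the exceptions being uptake and the fuel switch and uncoupling genes, the groups do not overlap. Mean levels of mitochondrial genes outside oxidation and of skeletal muscle markers were also lower without overlap, and fibroblast and macrophage markers higher. Those of cardiomyocyte, endothelial, adipocyte and sex-linked genes overlapped (none of these lists is shown).

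With the fluidics station as a block, which compares the labelled transgenic arrays with the single non-transgenic array of station 2, the median difference was -0.27 and 29 of the 32 genes stayed negative. The exceptions were Cd36, Acad10 and Pdk4. The same values hold within station 2, and station 3 held 1 group only. With the Xist level as a term the median was -0.25, and all 32 genes were negative. The number of genes lower at an unadjusted p under 0.05 was 10 in each of these fits, in place of 18. Scan order and group cannot be told apart, because the labelled transgenic arrays were all scanned first. They were scanned in the order 3, 2, 1. In that order the mean deviation of the 32 genes rose from -0.31 through -0.14 to 0.0088. The non-transgenic arrays followed in the order 1, 3, 2, at 0.14, 0.17 and 0.13. Whether scan order plays a part in these levels was not tested.

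Other genes of fatty acid metabolism, from lists compiled alongside the members, had negative differences in 58 of the 73 genes tested. None passed the test over all probe sets in limma. At an unadjusted p under 0.05, 23 were lower, against 7.76% of all genes, and 2 were higher, against 10.4%. Without overlap between groups, 23 were lower, against 10.9% of all genes, and 4 were higher, against 14.3%. Slc22a5, the carnitine transporter of the cell membrane, differed by -0.63 (adjusted p = 0.0617), and Tmlhe, the first enzyme of carnitine synthesis, by -0.57 (adjusted p = 0.065). Of the 7 genes tested on that carnitine and malonyl-CoA list, 5 were lower without overlap, with a median of -0.38.

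In peroxisomes, which shorten very long chains, 11 of 12 genes had a negative difference. The membrane transporter Abcd3 was at -0.63 (adjusted p = 0.0617) and the racemase Amacr at -0.27 (adjusted p = 0.162). For other uptake, trapping and activation genes the count was 8 of 11, with the fatty acid binding protein Fabp4 and the aminotransferase Got2 at -0.25 and -0.20 (adjusted p = 0.234 and 0.288). Among further mitochondrial oxidation enzymes it was 12 of 13, with the epimerase Mcee and the hydrolase Hibch at -0.39 and -0.24 (adjusted p = 0.176 and 0.215). Of 16 transcriptional regulators 12 were negative, among them the coactivator Ppargc1a at -0.71 (adjusted p = 0.107) and the fatty acid receptor Ppara at -0.55 (adjusted p = 0.137).

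The remaining lists did not share a direction. Both ketone body genes tested were higher without overlap, as were 14.3% of all genes. They were the dehydrogenase Bdh1, at 0.83 (adjusted p = 0.120), and Oxct1, the transferase of ketone use, at 0.064 (adjusted p = 0.656). Of 5 other thioesterases 4 were negative, with Acot11 at -0.47 (adjusted p = 0.284) and Acot9 in the opposite direction, at 0.28 (adjusted p = 0.174). Of 7 other pyruvate dehydrogenase and uncoupling genes 6 were negative. The phosphatase Pdp2 was at -1.0 (adjusted p = 0.102) and the kinase Pdk1, the only positive one, at 0.28 (adjusted p = 0.314).

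**Figure D4:**
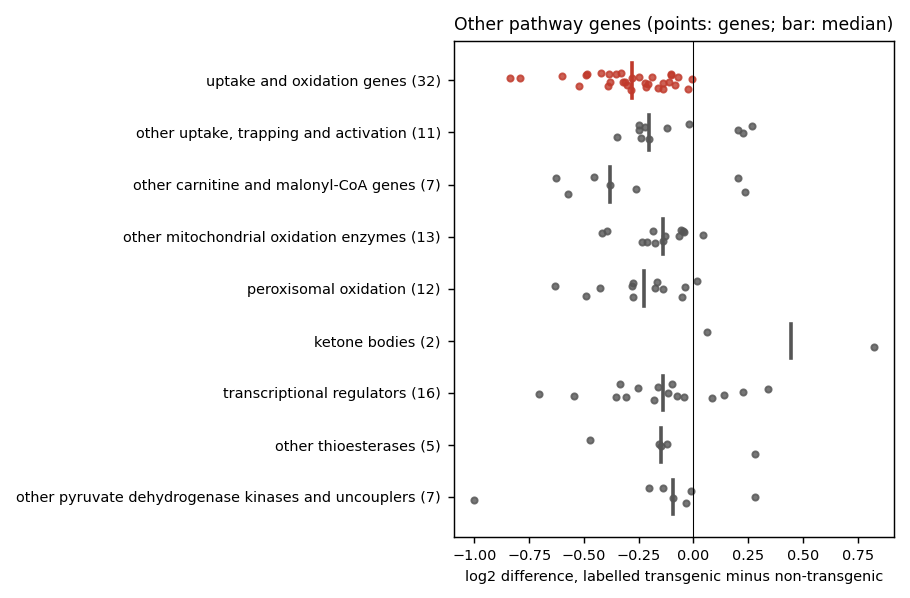
Difference in log2 value between labelled transgenic and non-transgenic arrays (horizontal axis) for the 32 uptake and oxidation genes and for 8 lists of other fatty acid genes (rows, number tested in brackets). Each point is a gene and each bar a list's median, at -0.28 for the 32 genes, -0.38 for the other carnitine and malonyl-CoA genes and 0.44 for the 2 ketone body genes.

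Differences of the same sign were seen in mitochondrial genes outside oxidation. Of 17 such genes, which included porins, import receptors and citrate synthase, 15 had a negative difference and 9 were lower without overlap, with a median of -0.14. The share lower without overlap was 10.9% over all genes and 29.9% over genes above log2 12. Of the 17 genes, 12 were above log2 12, and 6 of these were lower without overlap. Timm44 of the import motor was at -0.35 (adjusted p = 0.130) and Cs, citrate synthase, at -0.24 (adjusted p = 0.178). None passed the test. Whether the 32 genes differed by more than these was not tested.

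**Figure D5:**
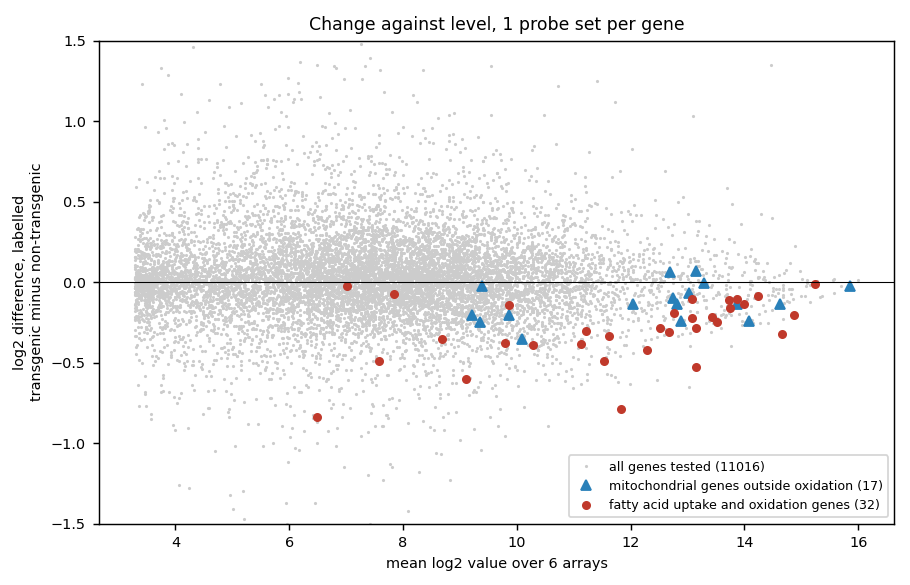
Difference in log2 value between labelled transgenic and non-transgenic arrays (vertical axis) against the mean log2 value over 6 arrays (horizontal axis), 1 point per gene, with 40 genes beyond 1.5 in either direction not shown. The 32 uptake and oxidation genes (red circles) all lie below 0, 18 of them above log2 12, and 15 of the 17 mitochondrial genes outside oxidation (blue triangles) lie below 0 as well.

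In bulk tissue, fewer cells of a type and less RNA per cell cannot be told apart. Markers of some other cell types differed in level between the groups, although no gene on the marker lists passed the test. The mean level of the 10 fibroblast markers was log2 9.82 to 10.33 on the labelled transgenic arrays and 9.36 to 9.74 on the others, and 9 of the 10 had a positive difference (median 0.67). For the 10 macrophage markers it was 8.51 to 8.69 against 8.02 to 8.20, with 9 of 10 positive (median 0.54). Cardiomyocyte markers had a median of 0.0063 (8 of 14 positive), at a level near the top of the scale. Of the 12 endothelial markers, cells that also express Cd36, 7 were negative (median -0.12). Only 3 of 10 adipocyte markers could be tested, at a median of 0.0008, and only 5 of 11 skeletal muscle markers, at -0.092. The adipocyte median is that of Pck1, dim at a mean of log2 3.60, while Lipe was at -0.44 and Cidea at 0.32. Apart from Ckm at log2 14.49, the skeletal muscle markers had means between log2 3.32 and 4.70. These 2 medians therefore say little about either cell type. The part of these cell types in the differences above was not tested.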

How the data were processed

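RNA from heart tissue was extracted with a column kit and 6 ug was labelled with biotin, per the labels' protocols. The authors deposited log2 values, 1 for each probe set on each array. Per the submitters' processing notes these were made with GCRMA, which corrects the background and normalizes Affymetrix arrays. Its version, and whether other steps followed, is not stated in those notes. Further deposited files were instrument text records, which gave the fluidics station, the order of scanning and the typed chip lot word. Array medians lay between log2 3.25 and 3.31, and precision is limited by the number of arrays.

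Of 45101 probe sets, 64 controls were left out. Genes were named from the platform annotation of 2016, with symbols checked through RefSeq gene IDs (GRCm38.p6). Probe sets with a mean over the 6 arrays above log2 3.285 (the median) were tested, 22518 in all, including 54 of the 57 member probe sets. Each gene was read from its brightest probe set. The 2-sided comparison used limma 3.58.1 under R 4.3.3 (eBayes on an unblocked lmFit, Benjamini-Hochberg over all probe sets tested, threshold 0.05), and errors after ± are moderated standard errors with 3 arrays per group. Medians and counts over lists were not tested. In simulated data with 22518 probe sets for this comparison, the test recovered 0.2% of changes of 0.25, 12.5% of 0.5, 79.8% of 1 and 97.6% of 2 (log2), with 5.98% of calls false. The simulated noise was normal and independent between probe sets, without shifts shared by an array, sex or station. These rates may therefore differ from those in the real data.

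The members and lists were chosen with earlier results of these data known. Up to 2 genes with the smallest p in each step were given by array, as were Cpt1a, whose probe sets differ in sign, and Fabp3, named for its level. From each list of other genes, the 2 with the smallest p were named. Alternatives covered the filter, quantile normalization, median centring, variance models, array weights, blocks for replicate number and station, the Xist level, the handling of a gene's probe sets, and each array left out. No pseudocount was needed on the log2 scale.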

Additional observations from a re-analysis of the deposited data

How the results depend on the processing

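Of the 32 genes, 26 kept the sign of their difference in each of the 18 alternatives run. The signs that turned were those of Cd36 (0.016), Acad10 (0.036) and Pdk4 (0.074) with the station as a block, of Cpt1a (0.0082) when its probe sets were averaged, and of 3 genes with single arrays left out. These last were Acad10 (from -0.063 to 0.028), Fabp3 (from -0.019 to 0.0010) and Slc27a1 (from -0.35 to 0.028). With quantile normalization Fabp3 was at 0 and the other 31 genes were negative. The median over the genes ran from -0.35 to -0.20 with single arrays left out, that of uptake from -0.16 to -0.0020 and that of the carnitine shuttle from -0.41 to -0.26. The median of uptake was -0.0093 with the station as a block, and the number of genes without overlap ran from 19 to 25 over all alternatives. Counts of called members were 0 in 16 of the alternatives. With a filter at log2 6 instead of 3.285, which tests fewer probe sets, or with a mean-variance trend, 2 probe sets and 2 genes were called, Cpt2 and Acad11 (adjusted p = 0.044 and 0.0391, then 0.0418 and 0.045). For both settings the sizes were unchanged, at -0.42 and -0.49. With the replicate block, 0 members were called and 13 were lower at an unadjusted p under 0.05. Arrays with the same number did not deviate together (correlations of -0.083, -0.174 and -0.0067 over probe sets). Same-numbered arrays also lay on opposite sides of log2 6 for Xist. With 3 arrays per group, these correlations cannot settle whether the numbers pair the samples. In the simulation, 0.2% of changes of 0.25 and 12.5% of changes of 0.5 were recovered, on average over probe sets drawn from all those tested. The members had a median within-group SD of 0.109, against 0.137 over all genes tested. Recovery among the members themselves, or with shifts shared by the genes of an array, was not simulated.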
